A study of Mus musculus with 9 samples.

Results

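Gene expression in the cerebellum of mice given 3-acetylpyridine after PLX3397 was compared with that of mice given 3-acetylpyridine without it. The libraries were taken by their labels: the 3 libraries labelled PLX3AP (3-AP after PLX3397, described in the labels as microglia depletion) and the 3 labelled 3AP (3-AP) are 6 of the 9 libraries of the series. The other 3 libraries are of mice given saline. They do not enter the group difference, and their values stand beside the others as a reference. They do share in the count filter, the scaling and the estimate of spread behind the p-values. Of 53924 rows with a gene name, 16634 had enough counts to be tested. Every group shares the tissue label cerebellum, and the 6 compared libraries share 3-acetylpyridine as the damaging agent. The labels give no strain, sex, age, dose, route or time, and they do not say whether each library is a separate animal, so the p-values measure the spread between libraries, which may be partly technical. A group given PLX3397 without 3-acetylpyridine was not analysed here, so an action of PLX3397 in itself and its action on the response to 3-acetylpyridine cannot be told apart.

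3-Acetylpyridine is a nicotinamide analogue that is used in rodents to destroy neurons of the inferior olive, whose axons are the climbing fibres that excite Purkinje cells, and it leaves animals ataxic. PLX3397 (pexidartinib) is an inhibitor of the receptor kinases CSF1R, KIT and FLT3, and microglia and many further tissue macrophages die without CSF1R signals. CSF1 and interleukin 34 are the ligands of that receptor, and PU.1, encoded by Spi1, is the transcription factor that sets up the myeloid programme. Microglia are the macrophages of the brain tissue, whereas border-associated macrophages lie in the meninges, around vessels and in the choroid plexus. In bulk RNA, fewer cells of a type and less RNA per cell cannot be told apart.

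The 6 libraries held 18452256 to 22358447 estimated counts, and the first principal component of their log2 CPM (counts scaled to a common library total with TMM factors), with 43.0% of the variance, separated the treatment groups. The second, with 20.6%, set 3AP replicate 3 and PLX3AP replicate 1 on one side and the other 4 libraries on the other. Those libraries also had the highest shares of mitochondrially encoded counts of the 6, 4.75% and 5.27%. Genes that define cerebellar tissue were abundant in every library. Calb1, the calbindin of Purkinje cells, stood at 1094, 1094 and 1130.5 CPM in the 3AP libraries and 1271, 1032 and 1023 CPM in the PLX3AP libraries. The granule cell GABA receptor subunit Gabra6 stood at 456, 467 and 576 CPM and 631, 451 and 435 CPM. Ttr, the transthyretin made by choroid plexus, varied widely within groups and had 909, 1837 and 577 CPM in the 3AP libraries and 1917, 11.5 and 1751 CPM in the PLX3AP libraries.

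Genes were tested with edgeR's quasi-likelihood test and called at a Benjamini-Hochberg adjusted p under 0.05 over all tested genes. PLX3AP libraries differed from 3AP libraries at 621 of the 16634 tested genes, which is 3.73% of them. Of these, 525 were lower with PLX3397 (3.16% of the tested genes) and 96 were higher (0.577%). The lower genes moved further: 402 fell at least 2-fold and 214 at least 4-fold, whereas 8 of the higher genes rose at least 2-fold. The median log2 fold change was -1.67 among the genes called lower, 0.55 among those called higher and -0.0083 over all tested genes. Genes called lower were of low abundance, with a median of 6.88 CPM in 3AP libraries against 20.4 CPM over all tested genes, and the genes called higher had a median of 61.5 CPM in PLX3AP libraries. All 3 values of one group lay beyond those of the other in every called gene, a pattern that 2808 tested genes (16.9%) showed. The count of calls fell to 401 without 3AP replicate 1. The count of genes called higher was 47 without that library, 63 without 3AP replicate 2, 49 without PLX3AP replicate 2 and 54 without PLX3AP replicate 3. All 621 kept their direction in each of the 6 fits that left out 1 library. With all 3 values of one group beyond those of the other, that outcome was nearly fixed in advance and is not support. In limma-trend fits of the deposited TPM values, 560 of the 564 called genes that passed the filter on TPM kept their direction, and 617 of 621 with no filter.

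**Figure D1:**
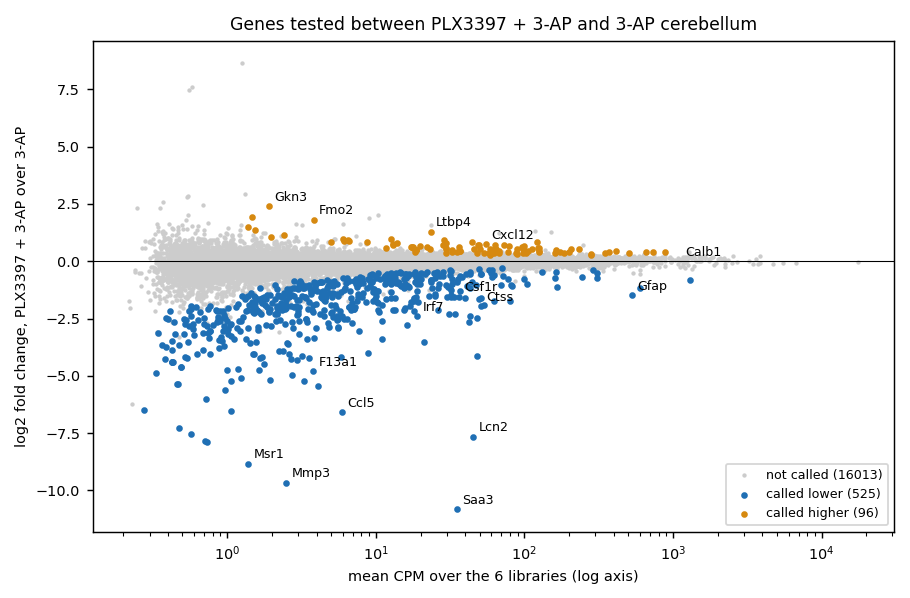
Log2 fold change of PLX3AP over 3AP (vertical axis) against mean CPM over the 6 libraries (horizontal log axis) for the 16634 tested genes; 525 genes called lower are blue, 96 called higher are orange and the others grey. The genes called lower reach far larger changes than those called higher; for genes at 0 in every PLX3AP library, such as Msr1 and Mmp3, the plotted value depends on the model's prior count and is not a measured size.

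The CSF1 receptor itself was lower after PLX3397. Csf1r stood at 60.8, 51.3 and 51.02 CPM in the 3AP libraries and at 13.2, 17.4 and 24.9 CPM in the PLX3AP libraries. The groups did not overlap, and PLX3AP replicate 3 was the highest of its group. Csf1r was 2.94-fold lower (log2 fold change -1.55, SE 0.18, adjusted p = 0.00069), and saline libraries had 33.6 ± 1.39 CPM (SD, n = 3). Of 16 tested genes of the receptor, its ligands and myeloid regulators, 7 fell, 0 rose and 9 were not called, with a median log2 fold change of -1.01. In this list and those that follow, a gene that reached the count filter only through the 3AP libraries had to differ, so counts and medians describe the tested genes and are not support for a change of the whole list. The shares to set beside every list are those over all tested genes: 3.16% called lower, 0.577% called higher and 16.9% with separated groups. The 7 were Csf1r, Tyrobp (the DAP12 adaptor of myeloid receptors), Spi1, Csf2rb (the shared beta chain of GM-CSF and interleukin 3 receptors), Csf3r, Irf8 and Runx1, and the Runx1 call was lost without 3AP replicate 1 or PLX3AP replicate 3 (adjusted p 0.059 to 0.065). On TPM the Csf2rb call was lost with a pseudocount of 0.1 (adjusted p = 0.0731), and those of Csf2rb, Irf8 and Runx1 with a pseudocount of 1 and no filter (0.0635 to 0.215). Spi1 stood at 5.89, 4.82 and 4.99 CPM against 0.879, 0.542 and 1.15 CPM, with no overlap (log2 fold change -2.61, SE 0.36, adjusted p = 0.00088). Neither ligand was called: Csf1 had 34.9, 33.5 and 28.3 CPM against 23.9, 25.5 and 25.3 CPM (log2 fold change -0.37, adjusted p = 0.093), and Il34 had 8.84, 7.5 and 9.89 CPM against 8.896, 10.5 and 10.5 CPM (log2 fold change 0.19, adjusted p = 0.72). The Csf1 values did not overlap between groups, and without 3AP replicate 3 the adjusted p was 0.033.

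Markers of homeostatic microglia were lower as a group but not evenly. Of 22 tested markers, 13 fell, 0 rose and 9 were not called, and all 22 had a negative log2 fold change, with a median of -1.32. Ctss, the lysosomal protease cathepsin S, had the second smallest p-value of all tested genes. It stood at 84.4, 73.4 and 84.4 CPM in 3AP libraries and 17.4, 19.7 and 25.01 CPM in PLX3AP libraries, without overlap, and was 3.89-fold lower (log2 fold change -1.96, SE 0.12, adjusted p = 8.9e-06). Itgam, the CD11b integrin chain, was at 36.3, 26.4 and 22.6 CPM against 3.405, 3.39 and 5.63 CPM, and was 6.85-fold lower (log2 fold change -2.78, SE 0.24, adjusted p = 5.8e-05). The fractalkine receptor Cx3cr1 was at 33.03, 22.4 and 24.3 CPM against 6.15, 6.73 and 10.6 CPM (log2 fold change -1.76, SE 0.21, adjusted p = 0.00041). In all 3 genes PLX3AP replicate 3 held the highest value of its group, below the lowest 3AP library.

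Other microglial genes fell as well. The membrane protein Tmem119 fell 2.86-fold (adjusted p = 0.00067) and the actin-binding protein Aif1, known as IBA1, fell 5.86-fold (adjusted p = 0.0020). The purinergic receptor P2ry12 was not called: it had 6.97, 5.06 and 8.78 CPM against 3.79, 2.53 and 5.11 CPM, so that PLX3AP replicate 3 lay just above the lowest 3AP value (log2 fold change -0.87, SE 0.27, adjusted p = 0.13). The adjusted p of P2ry12 was 0.043 with DESeq2 and 0.033 with no filter on low counts. Trem2, a lipid receptor of microglia, was not called either (log2 fold change -0.83, adjusted p = 0.070, and 0.030 without PLX3AP replicate 3). Sparc, an extracellular matrix protein that glia and vessels also make, was among the markers not called (adjusted p = 0.025 without 3AP replicate 3) and supplied 83.1% of the list's summed TPM in PLX3AP libraries.

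The promoter of Ctss is shown because this gene had the smallest p-value of the microglial markers and its window holds a core that PU.1 binds. RefSeq promoter windows (GRCm38.p6, from 250 bases before to 50 after a listed start) were matched by symbol for 12139 of the 16634 tested genes, giving 15528 windows. The core searched was GAGGAAGT on either strand. It was present in 2.80% of all windows, in 8.74% of the 492 windows of genes called lower and in 3.00% of the 100 windows of genes called higher. These shares describe letters in a window and were not tested. The Ctss window lies at chr3:95526536-95526835 on the + strand, and its match, in capitals, reads on the opposite strand and starts 2 bases before the listed start. Upstream of that core the window also holds gaaaccgaaa, left in lower case. Those letters match the interferon-stimulated response element, searched below as GAAANNGAAA, so the window is not an example of the PU.1 core alone.
Ctss: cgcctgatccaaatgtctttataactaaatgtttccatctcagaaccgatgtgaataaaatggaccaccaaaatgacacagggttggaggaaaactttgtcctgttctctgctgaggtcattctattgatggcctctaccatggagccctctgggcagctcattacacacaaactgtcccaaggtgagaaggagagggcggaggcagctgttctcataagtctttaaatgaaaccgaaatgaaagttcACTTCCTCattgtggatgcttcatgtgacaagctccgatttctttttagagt

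The level that remained varied between PLX3AP libraries and between lists. For each library the CPM of every gene was expressed as a percentage of its mean over 3AP libraries, and the median was taken over a list. Homeostatic microglia markers stood at 29.8%, 33.4% and 50.1% in PLX3AP replicates 1, 2 and 3. The same measure in the 3AP libraries was 112%, 93.4% and 93.3%, and over all tested genes it was 100.2%, 99.3% and 98.3% in the PLX3AP libraries. Border-associated macrophage markers were lower still, at 3.97%, 9.24% and 15.5%. Phagocytosis genes stood at 15.8%, 23.7% and 30.2% and complement genes at 15.5%, 21.7% and 28.3%. In these 4 lists PLX3AP replicate 1 was the lowest and PLX3AP replicate 3 the highest. That order did not hold for disease-associated microglia genes, at 68.5%, 76.2% and 70.4%, or for the CSF1 receptor list, at 25.04%, 61.97% and 60.1%, both highest in PLX3AP replicate 2.

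**Figure D2:**
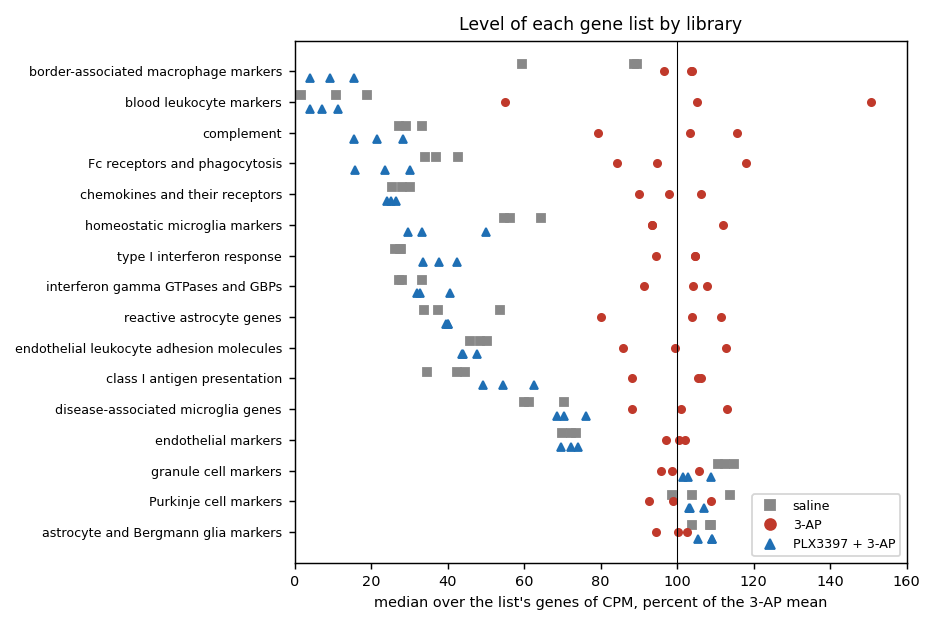
Median over each list's tested genes of CPM as a percentage of the 3AP mean (horizontal axis), 1 point per library, for saline (grey squares), 3AP (red circles) and PLX3AP (blue triangles). PLX3AP libraries lie at 3.97 to 15.5% for border-associated macrophage markers and at 29.8 to 50.1% for homeostatic microglia markers, while granule cell, Purkinje cell and Bergmann glia lists lie between 101 and 109%.

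Genes that microglia raise in damaged tissue showed a mixed pattern. Of 22 tested disease-associated microglia genes, 8 fell, 0 rose and 14 were not called, with a median log2 fold change of -0.44. Lyz2, the macrophage lysozyme, stood at 43.8, 48.6 and 24.5 CPM against 3.24, 3.21 and 3.63 CPM and was 11.6-fold lower (log2 fold change -3.53, SE 0.25, adjusted p = 4.0e-05). The PLX3AP values were close to each other, and 3AP replicate 3 was the lowest of its group, well above them. Ch25h, the cholesterol hydroxylase of activated macrophages, was 14.9-fold lower (adjusted p = 6.0e-05), with 273 counts over the 3AP libraries and 18 over the PLX3AP libraries. The lysosomal glycoprotein Cd68 fell (log2 fold change -1.57, adjusted p = 0.0027). Ccl6, a chemokine of myeloid cells, fell 4.91-fold (adjusted p = 0.00064). Gpnmb (log2 fold change -1.25, adjusted p = 0.0091) and the secreted phosphoprotein Spp1 (-1.05, adjusted p = 0.023) fell less. The Gpnmb call was lost without 3AP replicate 1 (adjusted p = 0.059), and in the 3 fits on TPM (0.0655 to 0.131), and that of Spp1 without any single PLX3AP library (0.056 to 0.097) or with no filter on low counts (0.125). Apoe, the apolipoprotein that astrocytes also make, was not called (log2 fold change 0.17, adjusted p = 0.60).

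Border-associated macrophage genes showed the lowest remaining levels of the tissue macrophage lists. Of 15 listed genes 12 could be tested, 11 of them fell, 0 rose, and Maf, a transcription factor also found in other cells, was not called. The median log2 fold change was -3.29. F13a1, the coagulation factor XIII A chain, stood at 7.805, 7.06 and 7.23 CPM against 0.0549, 0.271 and 0.43 CPM, and was 27.8-fold lower (log2 fold change -4.80, SE 0.35, adjusted p = 1.6e-05). The 3AP libraries were alike, and every PLX3AP library was below 0.5 CPM. Mrc1, the mannose receptor CD206, stood at 2.85, 5.16 and 7.27 CPM against 0.11, 0.136 and 0.525 CPM (19.2-fold lower, log2 fold change -4.26, SE 0.49, adjusted p = 0.00034). Here PLX3AP replicate 3 was the highest of its group, and without it the decrease was 39.4-fold.

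Cd163, the haemoglobin scavenger receptor, was at 2.602, 2.05 and 2.67 CPM against 0.11, 0.181 and 0.382 CPM (10.5-fold lower, adjusted p = 0.00022, and 15.9-fold without PLX3AP replicate 3). The Cd163 call was lost on TPM with a pseudocount of 0.1 (log2 fold change -2.48, adjusted p = 0.0505). Saline libraries had 4.71 ± 0.351 CPM of Mrc1 and 2.35 ± 0.315 CPM of Cd163 (SD, n = 3), so that for these genes the PLX3AP libraries stood under both other groups. Stab1, a scavenger receptor also found on sinusoidal endothelium, fell 4.61-fold (adjusted p = 1.6e-05). On the TPM scale its call was lost (adjusted p = 0.13 with a pseudocount of 0.1), with a log2 fold change of -2.06. Ms4a6c and Ms4a6d, membrane proteins of macrophages whose near-identical sequences can share estimated counts, fell 37.7-fold and 31.4-fold (adjusted p = 2.6e-05 and 1.6e-05). Adgre1, the macrophage antigen F4/80, fell 7.31-fold (adjusted p = 2.4e-05). Ms4a6d and Adgre1 are not members of the border-associated macrophage list and were named for their small p-values.

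**Figure D3:**
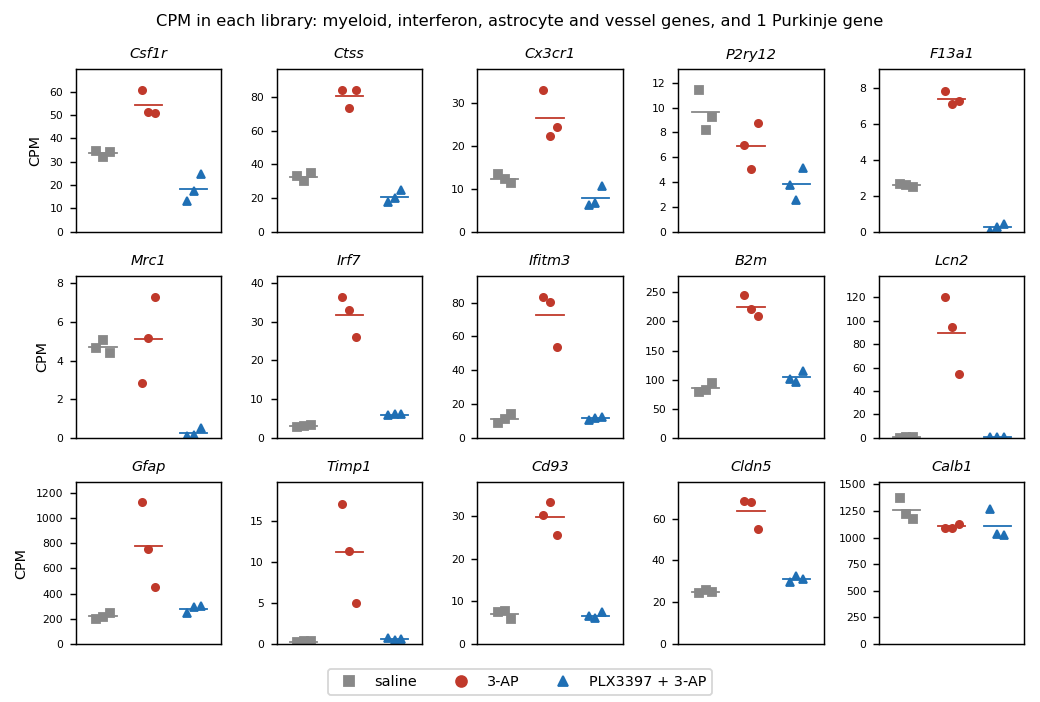
CPM of 15 genes in each library (vertical axes start at 0), for saline (grey squares), 3AP (red circles) and PLX3AP (blue triangles), with group means as lines. For 13 of the genes every PLX3AP library lies below every 3AP library; P2ry12 and Calb1 overlap.

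Markers of blood leukocytes were also lower with PLX3397, from low levels. Of 24 listed genes 9 could be tested, and a gene that passed the count filter only through the 3AP libraries had to differ, so the median log2 fold change of -3.64 describes those 9 genes only. Of these, 7 fell and 0 rose. Ccl5, a chemokine of T cells and activated macrophages, stood at 19.1, 9.84 and 6.01 CPM against 0.11, 0.0904 and 0.143 CPM and was 96.9-fold lower (log2 fold change -6.60, SE 0.52, adjusted p = 4.0e-05). The neutrophil and monocyte protein S100a9 was at 10.1, 6.28 and 3.73 CPM against 0.275, 0.316 and 0.477 CPM (18.4-fold lower, adjusted p = 0.0044), and its call was lost on TPM with a pseudocount of 0.1 (adjusted p = 0.0838). In both genes 3AP replicate 1 was the highest and 3AP replicate 3 the lowest of its group, and no PLX3AP library reached 0.5 CPM. Plac8, a gene of myeloid and lymphoid cells, fell 33.8-fold (adjusted p = 0.00060). Ly6c2, a marker of inflammatory monocytes, fell 3.72-fold (adjusted p = 0.0088), and its call was lost without 3AP replicate 1 or PLX3AP replicate 2 (0.053 to 0.055). The count of calls was 4 without 3AP replicate 1 and 4 without PLX3AP replicate 3. The list's summed TPM was 236, 148 and 84.5 in 3AP libraries and 6.45, 6.72 and 11.9 in PLX3AP libraries. The part of blood cells in the decreases of myeloid genes shared by microglia and leukocytes was not tested.

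Most tested receptors and enzymes of phagocytosis were lower. Of 25 tested genes, 18 fell, 1 rose and 6 were not called, with a median log2 fold change of -2.12. Fcgr3, an IgG receptor, stood at 21.6, 17.6 and 17.8 CPM against 2.42, 3.12 and 3.77 CPM and was 6.09-fold lower (log2 fold change -2.61, SE 0.18, adjusted p = 1.6e-05). Its signalling chain Fcer1g fell 6.37-fold (adjusted p = 8.7e-05), and Itgb2, the shared chain of leukocyte integrins, fell 5.68-fold (adjusted p = 6.0e-05). Msr1, the macrophage scavenger receptor, had 171 counts over the 3AP libraries and 0 over the PLX3AP libraries, at least 56.8-fold lower when 3 counts are assumed for the PLX3AP group (adjusted p = 7.2e-05). Clec4a1, a lectin of myeloid cells with close relatives, had 90 counts against 0 and was at least 29.9-fold lower by the same bound. With Msr1 at that bound the list median was unchanged. The 1 gene that rose was Mfge8, a secreted bridge between dying cells and phagocytes that astrocytes make, from 55.1, 50.3 and 49.4 CPM to 66.7, 81.6 and 77.9 CPM (log2 fold change 0.55, SE 0.10, adjusted p = 0.0044), without overlap, and its adjusted p was 0.0625 on TPM with no filter.

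Most tested complement genes fell. Of 18 tested genes, 15 fell, 0 rose and 3 were not called, with a median log2 fold change of -2.29. C1qa, a chain of the C1q recognition molecule, stood at 60.1, 51.4 and 44.03 CPM against 7.58, 11.1 and 13.03 CPM and was 4.88-fold lower (log2 fold change -2.29, SE 0.18, adjusted p = 4.0e-05). The other chains C1qb and C1qc had log2 fold changes of -2.30 and -2.13 (adjusted p = 0.00089 and 0.00055). C3, the central component, stood at 26.2, 17.2 and 7.08 CPM against 0.494, 1.54 and 1.05 CPM (log2 fold change -4.000, SE 0.53, adjusted p = 0.0026). The C3 groups did not overlap although 3AP libraries differed from each other by more than 3-fold, and its adjusted p was 0.087 with limma-voom. Cfb, factor B of the alternative pathway, had 494 counts over the 3AP libraries and 11 over the PLX3AP libraries (adjusted p = 0.0051). Its log2 fold change of -5.44 became -8.02 without PLX3AP replicate 3 and -4.83 without PLX3AP replicate 2.

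The type I interferon response was lower in nearly every gene tested. Interferon-stimulated genes are switched on through an interferon-stimulated response element in their promoters, and IRF7 amplifies the response. Of 31 tested genes, 27 fell, 0 rose and 4 were not called, and all 31 had separated groups. Over all tested genes, 3.16% were called lower and 16.9% had separated groups. The median log2 fold change was -1.49. Irf7 had the smallest p-value of all tested genes: it stood at 36.4, 32.9 and 26.1 CPM against 5.82, 6.1 and 6.16 CPM, and was 5.27-fold lower (log2 fold change -2.40, SE 0.14, adjusted p = 8.9e-06). The PLX3AP libraries were nearly equal, and above the saline level of 3.08 ± 0.358 CPM (SD, n = 3).

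The antiviral effectors followed the same pattern with different sizes. Ifitm3, which blocks virus entry, stood at 83.5, 80.6 and 53.5 CPM against 10.9, 12.02 and 12.1 CPM (6.22-fold lower, log2 fold change -2.64, SE 0.20, adjusted p = 4.2e-05). Isg15, a ubiquitin-like modifier, stood at 12.9, 11.7 and 9.796 CPM against 3.95, 2.94 and 3.39 CPM (3.35-fold lower, log2 fold change -1.74, SE 0.18, adjusted p = 8.7e-05). Ifit3 stood at 60.7, 58.7 and 58.9 CPM against 29.5, 27.9 and 21.3 CPM (2.27-fold lower, log2 fold change -1.18, SE 0.11, adjusted p = 4.7e-05), and counts of Ifit3 and its near copy Ifit3b could be split between them. None of these groups overlapped. Ifit3 kept the highest share of its 3AP level of these genes, and its saline level was 17.4 ± 0.675 CPM (SD, n = 3). Oasl2 (adjusted p = 2.2e-05), Trim30a (adjusted p = 4.3e-05) and Bst2, known as tetherin (adjusted p = 9.2e-05), fell 4.35-fold, 4.83-fold and 4.37-fold.

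The promoters of Isg15, Ifit3 and Ifitm3 are shown because their windows match the response element in different numbers and places. The element was searched as GAAANNGAAA on either strand, and overlapping matches were counted. It was found in 2.99% of all 15528 windows, in 12.6% of windows of genes called lower and in 1.00% of windows of genes called higher. Of 24 windows that matched genes of the type I interferon list, 14 (58.3%) held it. Among the 460 windows of genes called lower outside the interferon lists, the share was 9.13%. The gamma-activated site, searched as TTCNNNGAA, was in 6.79% of all windows, 11.2% of windows of genes called lower and 3.00% of windows of genes called higher. Isg15 (chr4:156200769-156201068, - strand) had 3 overlapping matches, the first of which starts 78 bases before the listed start. Ifit3 (chr19:34583279-34583578, + strand) had 2, starting 156 and 122 bases before it. Ifitm3 (chr7:141010695-141010994, - strand) had 2, starting 2 and 19 bases after it. Only matches to GAAANNGAAA are in capitals, and each sequence reads along its gene's strand in GRCm38.p6. The Ifitm3 window also holds a gamma-activated site, ttctgaGAA, which runs into its second capital stretch. A match is a description of letters, and no test was made of these shares.
Isg15: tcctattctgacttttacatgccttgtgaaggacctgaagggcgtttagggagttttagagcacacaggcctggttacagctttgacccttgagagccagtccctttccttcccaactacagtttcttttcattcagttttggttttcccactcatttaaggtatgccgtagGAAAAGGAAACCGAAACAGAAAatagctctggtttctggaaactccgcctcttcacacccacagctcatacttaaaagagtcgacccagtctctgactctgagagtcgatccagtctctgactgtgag
Ifit3: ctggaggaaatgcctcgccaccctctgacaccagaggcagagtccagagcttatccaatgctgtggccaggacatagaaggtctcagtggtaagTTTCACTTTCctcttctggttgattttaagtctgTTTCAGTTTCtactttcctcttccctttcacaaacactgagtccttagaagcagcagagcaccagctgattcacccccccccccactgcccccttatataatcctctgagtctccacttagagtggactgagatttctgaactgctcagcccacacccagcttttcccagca
Ifitm3: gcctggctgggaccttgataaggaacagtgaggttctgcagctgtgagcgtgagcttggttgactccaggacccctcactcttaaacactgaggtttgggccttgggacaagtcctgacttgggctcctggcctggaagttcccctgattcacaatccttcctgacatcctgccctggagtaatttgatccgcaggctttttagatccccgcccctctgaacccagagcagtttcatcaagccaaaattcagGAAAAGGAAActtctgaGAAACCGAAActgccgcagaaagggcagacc

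Interferon gamma GTPases and genes of class I antigen presentation were lower as well. Of 18 tested interferon gamma GTPases and guanylate binding proteins, 13 fell and 0 rose, with a median log2 fold change of -1.34. Igtp stood at 13.1, 11.8 and 11.4 CPM against 4.503, 3.795 and 4.06 CPM (2.95-fold lower, adjusted p = 0.00011), Irgm1 fell 2.14-fold (adjusted p = 0.00032), Gbp2 fell 3.13-fold (adjusted p = 0.00037) and Gbp4 5.89-fold (adjusted p = 0.00020). Of 20 class I genes, 12 fell, 0 rose and 8 were not called, with a median of -0.92. The light chain B2m stood at 245, 221 and 209.8 CPM against 102, 95.9 and 116 CPM, 2.16-fold lower (log2 fold change -1.11, SE 0.10, adjusted p = 4.0e-05). The immunoproteasome subunit Psmb8 fell 3.95-fold (adjusted p = 0.00011). The heavy chains H2-K1, H2-Q4 and H2-T23 fell by 1.72, 1.97 and 1.52 on the log2 scale (adjusted p = 0.00016, 5.6e-05 and 5.6e-05), and counts of such related genes are uncertain where reads fit several.

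Class II genes were lower in sign but mostly not called. All 9 tested genes had a negative log2 fold change, with a median of -1.005, and 1 was called lower. That gene was the costimulator Cd86, at 1.91, 1.41 and 1.65 CPM against 0.384, 0.226 and 0.0954 CPM (log2 fold change -2.81, adjusted p = 0.029). Its call was lost in 5 of the 6 fits that left out a library, all but that without PLX3AP replicate 1, at adjusted p of 0.064 to 0.14, with limma-voom (0.0519) and on TPM with a pseudocount of 0.1 (0.0878). The invariant chain Cd74 had 6.04, 5.99 and 4.22 CPM against 0.549, 1.36 and 2.53 CPM, and PLX3AP replicate 3 was closest to the 3AP libraries (log2 fold change -1.85, adjusted p = 0.097, and 0.033 without that library). Saline libraries had 5.56 ± 2.95 CPM of Cd74 (SD, n = 3).

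Chemokines and their receptors were called lower more often than higher among those with enough counts. Of 22 tested chemokines and receptors, 14 fell, 1 rose and 7 were not called, with a median log2 fold change of -2.08. Several had counts almost only in 3AP libraries, such as Ccl22, with 3, 67 and 7 counts over the saline, 3AP and PLX3AP libraries, and Cxcl9, with 3, 50 and 2, so this count and median describe the tested genes only. Ccl12, a monocyte attractant, stood at 3.63, 6.53 and 4.61 CPM against 0.275, 0.361 and 0.239 CPM (16.5-fold lower, log2 fold change -4.04, SE 0.36, adjusted p = 4.3e-05). The receptor Ccr1 had 88 counts over the 3AP libraries and 1 over the PLX3AP libraries, a depth-scaled ratio of 87.7 (95% interval for counting error 15.3 to 3502, adjusted p = 0.00035). The gene that rose was Cxcl12, the ligand of Cxcr4 made by vessels and stromal cells, which rose from 40.3, 42.9 and 39.7 CPM to 64.7, 66.96 and 74.97 CPM, 1.68-fold (log2 fold change 0.75, SE 0.083, adjusted p = 0.00019). Its groups did not overlap on either scale, but on TPM the adjusted p was 0.12 (pseudocount 0.1). The count of chemokine genes called lower was 9 without 3AP replicate 1 and 8 without PLX3AP replicate 3, and 2 chemokine genes were called higher without PLX3AP replicate 1.

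Receptor chains for interleukin 6 and TNF were lower, while Il1b, Tnf and Il6 had few counts. Of 16 tested genes of the interleukin 1, TNF and inflammasome list, 7 fell, 0 rose and 9 were not called, with a median log2 fold change of -0.95. The receptor chains Il6ra (adjusted p = 0.00056), Tnfrsf1b (adjusted p = 0.00093) and Tnfrsf1a (adjusted p = 0.0027) fell 3.05-fold, 3.23-fold and 1.96-fold, and Pycard, the inflammasome adaptor ASC, fell 4.31-fold (adjusted p = 0.0017). The Il6ra call was lost on TPM with a pseudocount of 0.1 (adjusted p = 0.0738). Il1b had 51 counts over the 3AP libraries and 2 over the PLX3AP libraries, which gives a depth-scaled ratio of 25.4 (95% interval for counting error 6.68 to 215, adjusted p = 0.014). The Il1b call was lost when 3AP replicate 1, 3AP replicate 2, PLX3AP replicate 2 or PLX3AP replicate 3 was left out (adjusted p 0.051 to 0.086). Tnf was too low to test, with 11 counts over the 3AP libraries and 0 over the PLX3AP and saline libraries. With 3 counts assumed for the PLX3AP group the ratio was 3.65, which leaves out counting error in the 11 counts. Il6 had 0, 2 and 4 counts over the 3AP, PLX3AP and saline libraries. The list had 4 calls without 3AP replicate 2.

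Some pattern recognition receptors were lower. Of 25 tested genes of Toll-like receptor and NF-kB signalling, 7 fell, 0 rose and 18 were not called, with a median log2 fold change of -0.74. Cd14, the lipopolysaccharide co-receptor, stood at 5.89, 4.87 and 3.93 CPM against 0.604, 1.13 and 1.48 CPM (4.51-fold lower, adjusted p = 0.0011). Ly86, the partner of the receptor CD180, fell 4.26-fold (adjusted p = 0.00035) and the RNA sensors Tlr7 and Tlr13 fell 4.37-fold and 4.99-fold (adjusted p = 0.0020 and 0.0023). The Tlr7 call was lost in the 3 fits on TPM (0.26 to 0.356), where its log2 fold change was -0.82 with a pseudocount of 1 and PLX3AP replicate 3 lay above 3AP replicate 3. The NF-kB subunits and feedback inhibitors of the list were not called, apart from the nuclear regulator Bcl3, whose call was lost in each fit that left out a library except that without 3AP replicate 3 (0.072 to 0.18), with limma-voom (0.0715), in a fit of the 6 libraries alone (0.0559) and on TPM (0.308 to 0.438).

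**Figure D4:**
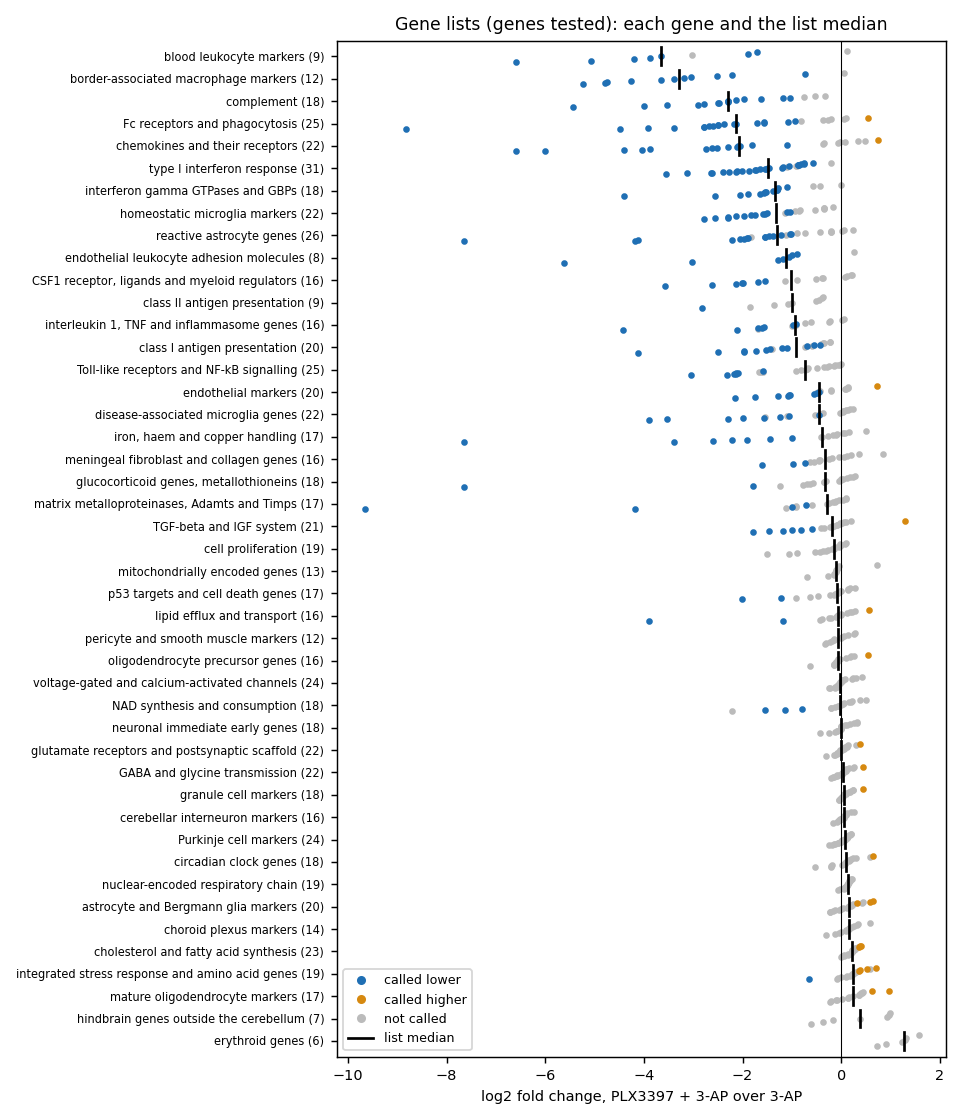
Log2 fold change of PLX3AP over 3AP for every tested gene of 45 lists (1 row per list, number tested in brackets, lists sorted by median), with genes called lower in blue, called higher in orange, not called in grey and the list median as a black bar. Medians run from -3.64 for blood leukocyte markers to 1.26 for erythroid genes, and Purkinje cell markers have a median of 0.071.

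Lcn2 and Saa3 had some of the largest decreases. Lcn2, the siderophore-binding protein lipocalin 2, stood at 119.8, 94.8 and 54.3 CPM in the 3AP libraries and 0.384, 0.452 and 0.477 CPM in the PLX3AP libraries. The 3AP libraries differed among themselves by more than 2-fold, and all PLX3AP values were under 0.5 CPM, beside a saline level of 0.564 ± 0.247 CPM (SD, n = 3). Lcn2 was 201-fold lower (log2 fold change -7.65, SE 0.41, adjusted p = 3.6e-05). Saa3, an acute-phase serum amyloid protein, had 4314 counts over the 3AP libraries, 2 over the PLX3AP libraries and 4 over the saline libraries. Its depth-scaled ratio was 2149 (95% interval for counting error 595 to 17750.0, adjusted p = 0.00037, and 0.15 with limma-voom). Saa3 stood at 106, 73 and 31.9 CPM in the 3AP libraries, in the same order as Lcn2. Timp1, an inhibitor of metalloproteinases, stood at 17.1, 11.3 and 4.99 CPM against 0.714, 0.542 and 0.573 CPM (18.2-fold lower, log2 fold change -4.19, SE 0.43, adjusted p = 0.00019).

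Of 26 tested reactive astrocyte genes, 15 fell, 0 rose and 11 were not called, with a median log2 fold change of -1.31. Cp, the ferroxidase ceruloplasmin, fell 3.75-fold (adjusted p = 4.8e-05), and the protease inhibitor Serpina3n fell by 4.13 on the log2 scale (adjusted p = 0.0029). Gfap, the intermediate filament of astrocytes, stood at 1123, 755 and 456 CPM against 247, 293 and 302 CPM. Its groups did not overlap, and 3AP replicate 1 was more than 2-fold above 3AP replicate 3. The decrease was 2.77-fold (log2 fold change -1.47, SE 0.29, adjusted p = 0.036), and the call was lost without 3AP replicate 2 or any single PLX3AP library (adjusted p 0.096 to 0.14), with no filter on low counts (0.104), with limma-voom (0.0541), in a fit of the 6 libraries alone (0.125) and on TPM with a pseudocount of 0.1 (0.0516). The intermediate filament Vim was not called (log2 fold change 0.24, adjusted p = 0.44). The level of the list was close between PLX3AP libraries, at 40.2%, 39.5% and 40.2% of the 3AP mean.

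Vessel genes fell in part. Of 20 tested endothelial markers, 9 fell, 1 rose and 10 were not called, with a median log2 fold change of -0.46. Cd93, a C-type lectin of endothelium that myeloid cells also carry, stood at 30.3, 33.2 and 25.5 CPM against 6.48, 6.01 and 7.49 CPM and was 4.45-fold lower (log2 fold change -2.15, SE 0.15, adjusted p = 1.6e-05). The tight junction protein Cldn5 stood at 68.3, 68.1 and 54.9 CPM against 29.6, 32.6 and 30.97 CPM (2.05-fold lower, log2 fold change -1.04, SE 0.094, adjusted p = 4.3e-05), and Pecam1, known as CD31, fell 2.098-fold (adjusted p = 4.2e-05). Ly6a and Ly6c1, surface proteins of brain endothelium and some leukocytes with closely related sequences, fell 3.35-fold and 2.12-fold (adjusted p = 1.6e-05 and 3.6e-05). Saline libraries had 24.95 ± 0.642 CPM of Cldn5 and 23.03 ± 1.09 CPM of Pecam1 (SD, n = 3), and PLX3AP libraries 31.1 ± 1.51 and 26.3 ± 1.89 CPM. Slc2a1, the glucose transporter of the blood-brain barrier, was not called (log2 fold change 0.12, adjusted p = 0.76). Itm2a, a membrane protein of brain endothelium, rose from 33.1, 37.9 and 40.4 CPM to 66.7, 58.8 and 57.7 CPM (log2 fold change 0.72, SE 0.10, adjusted p = 0.00096). Of 12 pericyte and smooth muscle markers edgeR called 0, as did DESeq2 and limma-voom, and 2 had an unadjusted p under 0.05.

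Most tested adhesion molecules that let leukocytes attach to endothelium were lower. Of 8 tested, 7 fell and 0 rose, with a median log2 fold change of -1.13. Icam1 stood at 17.8, 13.4 and 10.4 CPM against 1.15, 2.12 and 1.77 CPM (8.14-fold lower, log2 fold change -3.03, SE 0.28, adjusted p = 4.8e-05). Selp, P-selectin, had 117 counts over the 3AP libraries, 2 over the PLX3AP libraries and 0 over the saline libraries, so that the 3AP to PLX3AP ratio was 58.3 (95% interval for counting error 15.8 to 487, adjusted p = 0.0012). Vwf, von Willebrand factor, fell 2.44-fold (adjusted p = 5.6e-05), Cd34 fell 2.28-fold (adjusted p = 4.2e-05) and Podxl fell 1.85-fold (adjusted p = 4.3e-05). Sele, E-selectin, was too low to test, with 32 counts over the 3AP libraries and 0 over the PLX3AP libraries.

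Matrix genes fell in small numbers. Of 17 tested metalloproteinases, Adamts proteases and their inhibitors, 4 fell and 0 rose: Timp1, Mmp3, Adamts9 and Adamts1. Mmp3, stromelysin 1, had 305 counts over the 3AP libraries, 0 over the PLX3AP libraries and 2 over the saline libraries, at least 101-fold lower (adjusted p = 0.0024, and 0.061 in a fit of the 6 libraries alone). Of 16 tested meningeal fibroblast and collagen genes, 3 fell: the proteoglycan Dcn (3.06-fold, adjusted p = 0.00093), Col3a1 (1.97-fold, adjusted p = 0.0069) and Col1a1 (log2 fold change -0.73, adjusted p = 0.032). The calls of Adamts1 and Col1a1 were lost in 4 of the 6 fits that left out a library, at adjusted p of 0.064 to 0.14 and 0.077 to 0.14; both lost it without 3AP replicate 1, 3AP replicate 2 or PLX3AP replicate 2, Adamts1 also without PLX3AP replicate 3 and Col1a1 also without PLX3AP replicate 1. On TPM the calls of Adamts9 (adjusted p 0.162 to 0.26) and Col1a1 (0.188 to 0.284) were lost in all 3 fits, and those of Adamts1 and Col3a1 with no filter (0.101 each). In a fit of the 6 libraries alone Adamts1 lost its call (0.111). The basement membrane collagens Col4a1 and Col4a2, chosen after their values were seen, fell by 1.55 and 1.51 on the log2 scale (adjusted p = 4.0e-05 and 0.00051).

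The TGF-beta and IGF system held changes in both directions. Of 21 tested genes, 6 fell and 1 rose, with a median log2 fold change of -0.18. The receptor Tgfbr2 stood at 29.5, 30.8 and 30.5 CPM against 16.4, 15.6 and 19.2 CPM (1.77-fold lower, adjusted p = 0.00034), and the binding proteins Igfbp7 and Igfbp4 fell 2.75-fold and 1.99-fold (adjusted p = 0.00057 and 0.0014). The gene that rose was Ltbp4, which anchors latent TGF-beta in the matrix. It stood at 11.98, 14.4 and 14.3 CPM in the 3AP libraries and 31.4, 31.9 and 36.8 CPM in the PLX3AP libraries, with a wide gap between groups, and rose 2.46-fold (log2 fold change 1.30, SE 0.11, adjusted p = 4.2e-05), the smallest p-value of all genes called higher. Saline libraries had 34.5 ± 3.703 CPM (SD, n = 3). On TPM with no filter Ltbp4 and Igfbp4 were not called (adjusted p 0.0544 and 0.0546).

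The largest increases were in low-abundance genes. Gkn3, a marker of arterial endothelium in brain, stood at 0.344, 0.828 and 0.63 CPM against 3.08, 3.93 and 2.62 CPM and rose 5.303-fold (log2 fold change 2.41, SE 0.32, adjusted p = 0.00063), the only rise of 4-fold or more among the called genes. Fmo2, a flavin monooxygenase, stood at 1.67, 1.41 and 1.99 CPM against 6.26, 5.02 and 6.59 CPM and rose 3.51-fold (log2 fold change 1.81, SE 0.21, adjusted p = 0.00027). Sost, known as an inhibitor of Wnt signalling, rose 3.85-fold (adjusted p = 0.014), and this call was lost without 3AP replicate 1 (adjusted p = 0.051). Neu2 (2.79-fold, adjusted p = 0.035) and Tmprss5 (2.56-fold, adjusted p = 0.036) lost theirs without 3AP replicate 1, 3AP replicate 2, PLX3AP replicate 2 or PLX3AP replicate 3 (0.11 to 0.15 and 0.10 to 0.18). Neu2 and Tmprss5 also lost theirs in a fit of the 6 libraries alone (0.0942 and 0.0811) and in the 3 fits on TPM (0.0581 to 0.0983 and 0.317 to 0.475), and Fmo2 and Sost on TPM with no filter (0.0585 and 0.0896). Saline libraries had 3.85 ± 0.587 CPM of Gkn3, 6.09 ± 0.934 CPM of Fmo2 and 2.72 ± 0.941 CPM of Sost (SD, n = 3). For Neu2 and Tmprss5 the saline levels were 2.10 ± 0.233 and 1.87 ± 0.380 CPM. The PLX3AP means of these 5 genes, in that order, were 3.21, 5.95, 2.33, 2.05 and 2.21 CPM. In CPM each PLX3AP library was above each 3AP library in all 5 genes, which the rule for naming them required. On TPM the Tmprss5 groups overlapped, with 2.69 in 3AP replicate 1 and 2.6 in PLX3AP replicate 1.

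**Figure D5:**
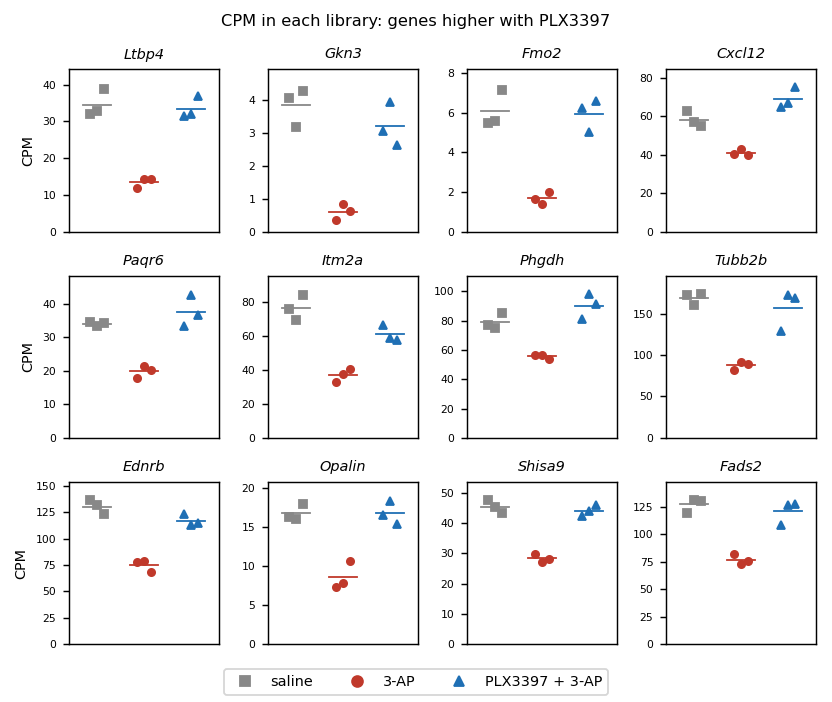
CPM of 12 genes called higher in each library (vertical axes start at 0), for saline (grey squares), 3AP (red circles) and PLX3AP (blue triangles), with group means as lines. The 3AP libraries lie under all PLX3AP libraries in each panel, with Gkn3 and Fmo2 near the bottom of the count range.

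A few astrocyte and Bergmann glia markers rose by less than 2-fold. Ednrb, the endothelin receptor of astrocytes and Bergmann glia, stood at 77.5, 79.3 and 68.5 CPM against 124, 113 and 114 CPM (log2 fold change 0.64, SE 0.078, adjusted p = 0.00035). Of 20 tested astrocyte and Bergmann glia markers, 3 rose, 0 fell and 17 were not called, with a median log2 fold change of 0.15. The others were Hopx, a homeodomain protein (1.502-fold, adjusted p = 0.0021), and the potassium channel Kcnj10 (1.25-fold, adjusted p = 0.048). The Kcnj10 call was lost in every fit that left out a library other than PLX3AP replicate 1 (adjusted p 0.059 to 0.19), in a fit of the 6 libraries alone (0.0969) and on TPM (0.279 to 0.438). Among the 74 genes called higher that are in no list were Paqr6, a membrane progestin receptor (1.89-fold, adjusted p = 0.00025), the tubulin Tubb2b (1.79-fold, adjusted p = 0.00035), Shisa9, an auxiliary subunit of AMPA receptors (1.55-fold, adjusted p = 0.00037), the mitochondrial sulfurtransferase Tst (1.76-fold, adjusted p = 0.00037) and the fatty acid desaturase Fads2 (1.57-fold, adjusted p = 0.00042). Tubb2b stood at 82.3, 91.7 and 89.8 CPM against 129.6, 173 and 169 CPM, with PLX3AP replicate 1 the lowest of its group. The Shisa9 call was lost on TPM with no filter (adjusted p = 0.101).

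Oligodendrocyte genes rose in few cases. Of 17 mature oligodendrocyte markers, 2 rose, 0 fell and 15 were not called, with a median log2 fold change of 0.24. The share called higher was 11.8%, beside 0.577% of all tested genes. Opalin, a membrane glycoprotein of myelin, stood at 7.36, 7.89 and 10.6 CPM against 16.6, 18.3 and 15.4 CPM and rose 1.94-fold (log2 fold change 0.96, SE 0.14, adjusted p = 0.0016). Mbp, the myelin basic protein gene, was not called, at 3785, 3237 and 3527 CPM against 3762, 4512 and 4167 CPM (log2 fold change 0.24, adjusted p = 0.44), and its groups overlapped. Of 16 precursor genes 1 rose, Cacng4, a regulator of AMPA receptors (1.46-fold, adjusted p = 0.016). Pdgfra, the growth factor receptor of precursors, had a log2 fold change of -0.11 (adjusted p = 0.78). Gpr17, a receptor of newly formed oligodendrocytes, stood at 8.69, 7.11 and 5.43 CPM against 6.43, 5.02 and 7.64 CPM (log2 fold change -0.16, adjusted p = 0.82), and at 24.4 ± 1.96 CPM in saline libraries (SD, n = 3). The Cacng4 call was lost without 3AP replicate 1, 3AP replicate 2, PLX3AP replicate 2 or PLX3AP replicate 3 (adjusted p 0.058 to 0.099) and in the 3 fits on TPM (0.0646 to 0.128). Without each of those libraries 1 mature oligodendrocyte marker was called, and 4 were called without PLX3AP replicate 1.

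Some genes of sterol and amino acid synthesis rose, by less than 2-fold. Of 23 tested genes of cholesterol and fatty acid synthesis, 3 rose, 0 fell and 20 were not called, with a median log2 fold change of 0.22, and 22 had a positive sign. Among the genes called higher, Cyp51 (adjusted p = 0.0092) and Msmo1 (adjusted p = 0.014), enzymes of the late sterol pathway, rose 1.29-fold and 1.33-fold. The list had 0 calls without 3AP replicate 1 or 3AP replicate 2 and 1 without PLX3AP replicate 2. On TPM the Cyp51 call was lost in 3 fits (adjusted p 0.0753 to 0.0854) and the Msmo1 call with no filter (0.0685). Of 19 integrated stress response and amino acid genes, 4 rose (21.1%) and 1 fell. Phgdh, the first enzyme of serine synthesis, stood at 56.6, 56.5 and 53.6 CPM against 81.1, 98.5 and 91.4 CPM (1.63-fold, log2 fold change 0.70, SE 0.085, adjusted p = 0.00035), without overlap. The amino acid transporter Slc7a5 rose 1.45-fold (adjusted p = 0.0045), Asns 1.28-fold (adjusted p = 0.014) and Psat1 1.31-fold (adjusted p = 0.022), and the cystine transporter Slc7a11 fell (log2 fold change -0.65, adjusted p = 0.045). Asns and Psat1 lost their calls without 3AP replicate 2, 3AP replicate 3, PLX3AP replicate 2 or PLX3AP replicate 3 (0.055 to 0.087 and 0.059 to 0.13), and Slc7a11 in each fit that left out a library except that without PLX3AP replicate 1 (0.059 to 0.20). On TPM the calls of Slc7a5 (0.0505 to 0.126), Asns (0.112 to 0.199), Psat1 (0.122 to 0.22) and Slc7a11 (0.126 to 0.205) were lost in all 3 fits. Psat1 and Slc7a11 also lost theirs in a fit of the 6 libraries alone (0.0532 and 0.101), and Slc7a11 with a filter of 1 CPM in 3 libraries (0.0672).

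Purkinje and other neuronal genes showed almost no calls. Of 24 Purkinje cell markers edgeR called 0, DESeq2 and limma-voom also called 0, and 0 had an unadjusted p under 0.05. Their log2 fold changes lay between -0.26 and 0.19, with a median of 0.071, and no marker had separated groups. Calb1 had a log2 fold change of 0.003 (SE 0.10, adjusted p = 0.99), and Pcp2, a Purkinje cell protein, stood at 456, 482 and 380.4 CPM against 438, 494 and 492 CPM (log2 fold change 0.11, SE 0.10, adjusted p = 0.76). A missed threshold does not show that these levels were equal. Of 24 voltage-gated and calcium-activated channels 0 were called by edgeR, DESeq2 or limma-voom, and 2 had an unadjusted p under 0.05, while edgeR called 1 higher without PLX3AP replicate 1. Kcnn2, the SK2 channel that limits Purkinje cell firing, stood at 46.2, 39.9 and 42.6 CPM against 48.1, 51.96 and 49.6 CPM: the groups did not overlap, and the log2 fold change was 0.22 (SE 0.10, adjusted p = 0.38). Of 18 immediate early genes, which neurons switch on with activity, 0 were called by the 3 tools and 2 had an unadjusted p under 0.05. Fos had 30.5, 21.3 and 15.1 CPM against 28.8, 27.7 and 27.2 CPM (log2 fold change 0.32, adjusted p = 0.72).

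Granule cell and transmitter lists held 1 call each. Of 18 granule cell markers 1 rose, the calcium buffer Calb2, known as calretinin, from 335, 352 and 371 CPM to 428, 495 and 507 CPM (1.35-fold, adjusted p = 0.027). Gabra6 had a log2 fold change of 0.016 (adjusted p = 0.97), with overlapping groups. Of 22 glutamate receptor and scaffold genes 1 rose, the kainate receptor subunit Grik1 (1.303-fold, adjusted p = 0.045). Of 22 GABA and glycine genes 1 rose, the glycine transporter Slc6a9, which astrocytes also carry (1.36-fold, adjusted p = 0.011). Without 3AP replicate 1, PLX3AP replicate 2 or PLX3AP replicate 3, each of these 3 calls was lost; Calb2 also lost it without 3AP replicate 2, and Grik1 without 3AP replicate 3 (adjusted p 0.096 to 0.17 for Calb2, 0.13 to 0.25 for Grik1 and 0.055 to 0.063 for Slc6a9). On TPM all 3 calls were lost in the 3 fits (0.0858 to 0.181 for Calb2, 0.298 to 0.437 for Grik1 and 0.129 to 0.258 for Slc6a9), and Grik1 lost its call in a fit of the 6 libraries alone (0.108). Without PLX3AP replicate 1, 2 glutamate receptor and scaffold genes were called. Of 16 interneuron markers edgeR, DESeq2 and limma-voom called 0, and 1 had an unadjusted p under 0.05.

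Lists on metabolism and cell death held few calls. Of 18 genes of NAD synthesis and consumption, the pathway that 3-acetylpyridine enters, 3 fell: Parp14 (2.92-fold, adjusted p = 0.00037) and Parp9 (2.21-fold, adjusted p = 0.0019), interferon-induced members of the PARP family, and the tryptophan dioxygenase Tdo2 (log2 fold change -0.80, adjusted p = 0.024). Of 17 p53 target and cell death genes, 2 fell, Casp8 (2.34-fold, adjusted p = 0.0079) and the necroptosis effector Mlkl (log2 fold change -2.004, adjusted p = 0.026). The Tdo2 call was lost without 3AP replicate 1, 3AP replicate 2, PLX3AP replicate 2 or PLX3AP replicate 3 (0.064 to 0.13), and the Mlkl call in each fit that left out a library except that without PLX3AP replicate 2 (0.059 to 0.13). Tdo2 also lost its call in a fit of the 6 libraries alone (0.0567) and in the 3 fits on TPM (0.326 to 0.501), and Mlkl on TPM with no filter (0.084). Of 16 genes of lipid efflux and transport, Pltp, a phospholipid transfer protein, rose (1.48-fold, adjusted p = 0.0096, and 0.062 without PLX3AP replicate 2), and Ch25h and the lipocalin Apod fell. Apod stood at 938, 835 and 724 CPM against 319.7, 407 and 372 CPM (2.27-fold lower, log2 fold change -1.18, SE 0.12, adjusted p = 0.00013). Of 18 clock genes 1 rose, Dbp (1.57-fold, adjusted p = 0.012), and the call was lost without 3AP replicate 1 or PLX3AP replicate 2 (0.056 to 0.074), whereas 2 clock genes were called without 3AP replicate 3 or PLX3AP replicate 1. On TPM with no filter Pltp and Dbp were not called (0.0732 and 0.0772). Of 18 glucocorticoid responsive genes and metallothioneins, 2 fell, Lcn2 and the sulfotransferase Sult1a1 (3.45-fold, adjusted p = 0.00053). Of 17 genes of iron, haem and copper handling 7 fell, among them Lcn2, Cp, Cd163 and the ferroxidase Heph (1.999-fold, adjusted p = 0.0020), and the count was 4 without 3AP replicate 1, without 3AP replicate 2 or without PLX3AP replicate 3.

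Choroid plexus, blood and mitochondrial genes varied between libraries. Choroid plexus markers summed to 1853, 3796 and 1251 TPM in 3AP libraries and 3757, 148 and 3793 TPM in PLX3AP libraries, so that PLX3AP replicate 2 stood far below the others, and none of the 14 markers was called by edgeR, DESeq2 or limma-voom or had an unadjusted p under 0.05. Erythroid genes summed to 953, 783 and 1194 TPM and 1589, 1597 and 4234 TPM. All 6 tested erythroid genes were higher in sign with an unadjusted p under 0.05, edgeR and limma-voom called 0 of them and DESeq2 called 2, and edgeR called 1 without PLX3AP replicate 2. Hbb-bs, a beta globin whose near copies share reads, stood at 86.5, 67.4 and 111 CPM against 149, 147 and 351 CPM, highest in PLX3AP replicate 3 (log2 fold change 1.29, adjusted p = 0.20). Of 19 proliferation genes edgeR, DESeq2 and limma-voom called 0, limma-trend on TPM called 1 lower, and 2 had an unadjusted p under 0.05. The topoisomerase Top2a had a log2 fold change of -1.07 (adjusted p = 0.47) and the kinase Cdk1 of -1.50 (adjusted p = 0.21). Of 13 mitochondrially encoded genes edgeR, DESeq2 and limma-voom called 0 and 0 had an unadjusted p under 0.05 (1 was called lower without PLX3AP replicate 1), with a median log2 fold change of -0.11. The 19 tested nuclear respiratory chain genes had a median of 0.13, with 0 calls by edgeR, DESeq2 or limma-voom and 2 at an unadjusted p under 0.05. Of 18 genes of the hindbrain outside the cerebellum 7 could be tested, and edgeR, DESeq2 and limma-voom called 0, with 0 at an unadjusted p under 0.05 and 2 called higher without 3AP replicate 2. The part of choroid plexus, blood or mitochondrial content in the differences above was not tested.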

How the data were processed

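Total RNA of cerebellum was sequenced in 9 libraries, 3 per group, grouped by their titles. The tools named in the submitters' processing notes are fastp, HISAT2, StringTie and RSEM, and the build is mm10. No version, annotation release, strand setting or filter is given in the sources used here. Expected counts, as deposited, are estimated reads per gene, not normalised, and 28.7 to 30.8% of those above 0 have a fractional part. TPM, also deposited, was scaled to length and library size by the authors. The 1884 unnamed rows held 0.526 to 0.660% of all counts per library and were excluded, and Ddit3 and other symbols with several rows were not tested under 1 symbol. Antisense and overlapping genes cannot be told apart without the strand setting.

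Expected counts were rounded and tested in R 4.3.3 with edgeR 4.0.16 (filterByExpr, TMM factors, robust quasi-likelihood fit of all 9 libraries with 1 term per group). P-values were adjusted by the Benjamini-Hochberg method over 16634 genes. CPM and log2 fold changes were computed from counts. DESeq2 1.42.0, limma-voom and limma-trend on log2(TPM + 0.1) or log2(TPM + 1) (limma 3.58.1) were among the alternatives, with other scaling and filters, a fit of the 6 libraries, a replicate block, and each library left out. Intervals cover counting error only, at a 95% level, and the floor is 3 counts. Fold bounds from that floor leave out counting error in the 3AP counts. The procedure was tested on simulated data, where the share of false calls was above the nominal one.

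Replicate numbers did not pair the samples: deviations of same-numbered 3AP and PLX3AP libraries correlated at -0.15, -0.028 and -0.20. Within groups log2 CPM correlated across genes at 0.980 to 0.986, and no pair of libraries was a copy of another. The named genes were, per direction, the 12 called genes with the smallest p and the 6 with the largest change (mean CPM of at least 1 in the higher group, groups apart), the 4 genes of smallest p in each of 45 lists, and a list of genes always named. Uncalled genes of this set are given in part, the rest as counts. Others were added after their values were seen. Members and lists (825 genes, 750 tested) were chosen with earlier results of these data known. Some members of the lists are counted but not reported by name here.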

Additional observations from a re-analysis of the deposited data

How the results depend on the processing

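Under 18 alternatives the number of called genes (621, with 96 higher and 525 lower) ranged from 350 to 780, and the calls shared with the 621 from 321 to 619. With the TPM values it was 350 (50 higher, 300 lower) with a pseudocount of 0.1, and 361 (30 higher, 331 lower) with a pseudocount of 1 and no filter on low values. With a pseudocount of 1 and the filter, 57 genes were higher. DESeq2 called 155 genes higher. A fit of the 6 libraries alone, without the saline libraries, called 553 genes (76 higher, 477 lower), 534 of them shared. Leaving out 1 library gave 401 to 715 calls, 47 to 144 of them higher and 354 to 571 lower. The replicate block gave 504 calls (69 higher, 435 lower), 489 of them shared, but the numbers pair no samples. Without both libraries that stood apart on the second component, an alternative chosen after seeing the data, 639 genes were called (134 higher, 505 lower). The cause of these shifts was not tested; RLE or upper-quartile scaling gave 622 and 618 calls.

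Of 3018 log2 fold changes of 169 named genes under these alternatives, 2742 kept their direction and their side of the threshold, 227 lost the call, 20 gained one and 29 changed sign. The sign changes among these genes were in 5 that were not called; among all 621 called genes, 4 changed sign on TPM. The Calb1 log2 fold change was -0.0022 without a filter, -0.0041 with limma-voom, -0.0076 in the 6 libraries alone, -0.0052 with the replicate block, -0.040 on TPM and -0.080 without both libraries that stood apart, and ran from -0.11 to 0.057 when 1 library was left out. The Gabra6 log2 fold change was -0.010 on TPM and -0.050 without those libraries, and ran from -0.18 to 0.12 when 1 was left out. The Gpr17 log2 fold change ran from -0.32 to 0.0082 and the Maf log2 fold change from -0.013 to 0.14 (0.23 without both libraries that stood apart). The Ttr log2 fold change was -1.55 with limma-voom, -0.71 with the replicate block, -1.55 and -1.53 on TPM with pseudocounts of 0.1 and 1, and -0.62 without those libraries, and ran from -0.34 to 0.72. Of 2430 list values 204 moved beyond their margin. Depth limits genes with fewer than about 1 CPM, such as Tnf and Il6.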
